A study of Mus musculus with 61 samples.

Results

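DNA replication genes are described here in mouse CD4 T cells followed for 72 h with and without IL-27, a cytokine that acts on T cells. The list of 40 genes was fixed by symbol, and was chosen with earlier results of these data known. It covers origin licensing, the replicative helicase, polymerases and primase, and the sliding clamp and its loader. Single strand binding and fragment joining, nucleotide supply, and coupling of replication to chromatin are covered too. Of the 40 genes, 38 had a probe set naming that gene alone, out of 12291 genes named on the arrays in this way. Gins2 and Chaf1a were not analysed here. Where a gene had several such probe sets, the one with the highest mean on the HT_MG-430A arrays was used.

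All samples were labelled C57BL/6 naive CD4 T cells. The 52 HT_MG-430A arrays held a ctrl arm and an IL27 arm of 26 arrays each at the same 18 times from 0.5 to 72 h, and 8 of these times had a second array in each arm whose title ends in d, a suffix the labels do not explain. A further 9 Mouse430A_2 arrays held ctrl at 0, 4, 16 and 48 h, IL27 at 4, 16 and 48 h, and 1 array each labelled GFPP and GFPN at 48 h, names that are not explained either. One protocol text was attached to every sample, controls included. It gave anti-CD3 at 1 µg/ml, a second antibody written as anti-CD8 at 1 µg/ml, and IL-27 at 25 ng/ml, aimed at Tr1 cells, an IL-10 producing regulatory type. The arm and time were therefore taken from the titles, and the time unit, which the titles do not give, was read as hours. The labels do not say that any 2 arrays hold cells of different mice or cultures. The p-values below rest only on spread between arrays, which may be technical and also holds changes with time inside the groups of times compared. The cells were bulk samples, in which a smaller share of cells in cycle and less RNA per cell cannot be told apart.

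A resting T cell is outside the cell cycle and holds little of the replication machinery. After stimulation through the T cell receptor it grows, then enters S phase, when origins licensed by ORC, Cdc6, Cdt1 and the Mcm2-7 ring are fired, and DNA is copied by polymerases held on by the PCNA clamp. Many genes of this machinery are textbook targets of E2F transcription factors, which are restrained by RB proteins until the cell is committed to divide.

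Promoter windows from RefSeq (GRCm38.p6), 250 bases before to 50 after each start, were matched for 33 of the 38 genes. These genes had 39 windows, and the start in 22 of them was the annotated start of the gene. A gene was counted for a motif if any of its windows held it. An E2F motif, spelled TTTCCCGC, TTTGGCGC, TTTCGCGC or TTTGCCGC on either strand, was present in 13 of the 33 genes (39.4%), against 3.29% of 17492 protein-coding genes in the same table. The CCAAT box, the letters CCAAT on either strand, was present in 21 of the 33 (63.6%), against 42.3%. Matches that shared letters, as E2F copies on opposite strands can, were each counted. The stretches below run from 115 bases before to 5 bases after the start and are shown because these 5 genes differ in motifs and in timing. Capitals mark E2F and CCAAT matches, and the sequences are written 5′ to 3′ along the gene. Mcm6 lies at chr1:128359701-128359820 on the minus strand, Orc1 at chr4:108579339-108579458 on the plus strand, Pclaf at chr9:65890208-65890327 on the plus strand, Rrm2 at chr12:24708139-24708258 on the plus strand, and Tk1 at chr11:117826010-117826129 on the minus strand.
Mcm6: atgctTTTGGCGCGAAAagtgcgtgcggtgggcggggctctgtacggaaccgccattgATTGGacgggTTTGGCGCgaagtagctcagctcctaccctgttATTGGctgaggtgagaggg
Orc1: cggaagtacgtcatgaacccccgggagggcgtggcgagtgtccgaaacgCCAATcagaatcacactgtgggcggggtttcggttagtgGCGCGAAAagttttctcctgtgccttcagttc
Pclaf: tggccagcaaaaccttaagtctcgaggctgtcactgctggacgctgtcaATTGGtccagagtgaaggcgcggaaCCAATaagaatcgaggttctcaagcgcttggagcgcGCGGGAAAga
Rrm2: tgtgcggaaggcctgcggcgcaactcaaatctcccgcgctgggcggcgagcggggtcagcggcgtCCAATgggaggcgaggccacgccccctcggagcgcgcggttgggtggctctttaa
Tk1: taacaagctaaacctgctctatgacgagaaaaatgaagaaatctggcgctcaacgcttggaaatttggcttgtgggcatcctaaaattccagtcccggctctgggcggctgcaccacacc
Mcm6 held 3 E2F matches, 2 of them overlapping, and 2 CCAAT boxes. Orc1 and Pclaf each held 1 E2F match, Rrm2 held only a CCAAT box, and Tk1 held neither in its window. A match describes letters in the window and no binding.

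The values are intensities per probe set, and every difference below was taken after adding 32 and taking log2, so that changes of dim genes are understated. All tests are limma with Benjamini-Hochberg adjustment over the 7164 genes that passed a filter on low values, and a gene is called at an adjusted p under 0.05. All 38 replication genes passed the filter, and 25 were above their array's median on all 52 arrays. The ctrl 12 h array stood apart: its highest correlation with any other array was 0.871, while all others reached at least 0.977. The 12 h arrays are kept out of the course steps and the timing below, but stay in the fits of IL-27 unless stated. All CD4 T cell markers with a named probe set (6 of 8) were above the array median on all 52 arrays, with a summed intensity from 5503 to 16601. Of the markers of other cell types, 9 of the 17 with a named probe set, among them Cd8a, Itgam, Itgax, Pax5 and Ncr1, were above it on none, and Cd8b1 was above it on all 52. The myeloid genes Lyz2 and Mpeg1 were above it on 11 arrays each, including all 10 up to 4 h in both arms (Lyz2 up to 255, Mpeg1 up to 63.4). The B cell genes Cd79b, Ms4a1 and Cd79a were above it on 7, 6 and 1 arrays, all from 2 to 8 h, with Cd79b up to 120 and Ms4a1 up to 106. Csf1r was above it on 2 arrays at 2 h. The NK gene Klrk1 was above it on 4 IL27 arrays at 54, 60 and 72 h, up to 159, and on no ctrl array. The summed myeloid markers ran from 154 to 409 in the early window and from 96.9 to 120 in the late window. With IL-27, in the windows defined below, Cd8b1 was lower in the middle and late windows (-0.58 and -0.62), Cd4 was lower in all 3 (-0.41, -0.52 and -0.30), and Mpeg1 was higher in the middle window and lower in the late window (0.18 and -0.14). The part of all these markers in the results was not tested.

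In the ctrl arm the machinery rose together between 4-8 h and 14-20 h. Of the 38 genes, 37 rose at this step, where 25.2% of all tested genes rose, and the median difference of the 38 was 1.83. Pcna, the sliding clamp, was the exception at 0.24 (adjusted p = 0.054). Before that step the genes did not move as one: from 0.5-2 h to 4-8 h, 5 rose and 4 fell, against 29.9% and 29.6% of all tested genes. From 14-20 h to 25-36 h another 19 rose, against 9.69%, with a median of 0.52. From 25-36 h to 42-54 h, 3 fell (Pola2, Pcna and Fen1), against 8.58%, and from there to 60-72 h only Orc1 fell, against 6.63%. Neighbouring steps share the arrays of the stage between them. Leaving out 1 time moved some of these counts: 4 genes changed at the first step without 8 h, 12 rose at the step to 25-36 h without 30 h, none fell at the step to 42-54 h without 25, 30 or 54 h, and Orc1 was not called without 42, 48 or 72 h. The IL27 arm had 35 genes rising at the step to 14-20 h (19.9% of all genes) and 25 at the step to 25-36 h (10.4%), and 4 falling at the step to 42-54 h (14%). Without 30 h these last 2 counts were 14 and 0, and without 54 h the fall was 0. Shares of all tested genes were not computed for the course fits with 1 time left out.

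**Figure D1:**
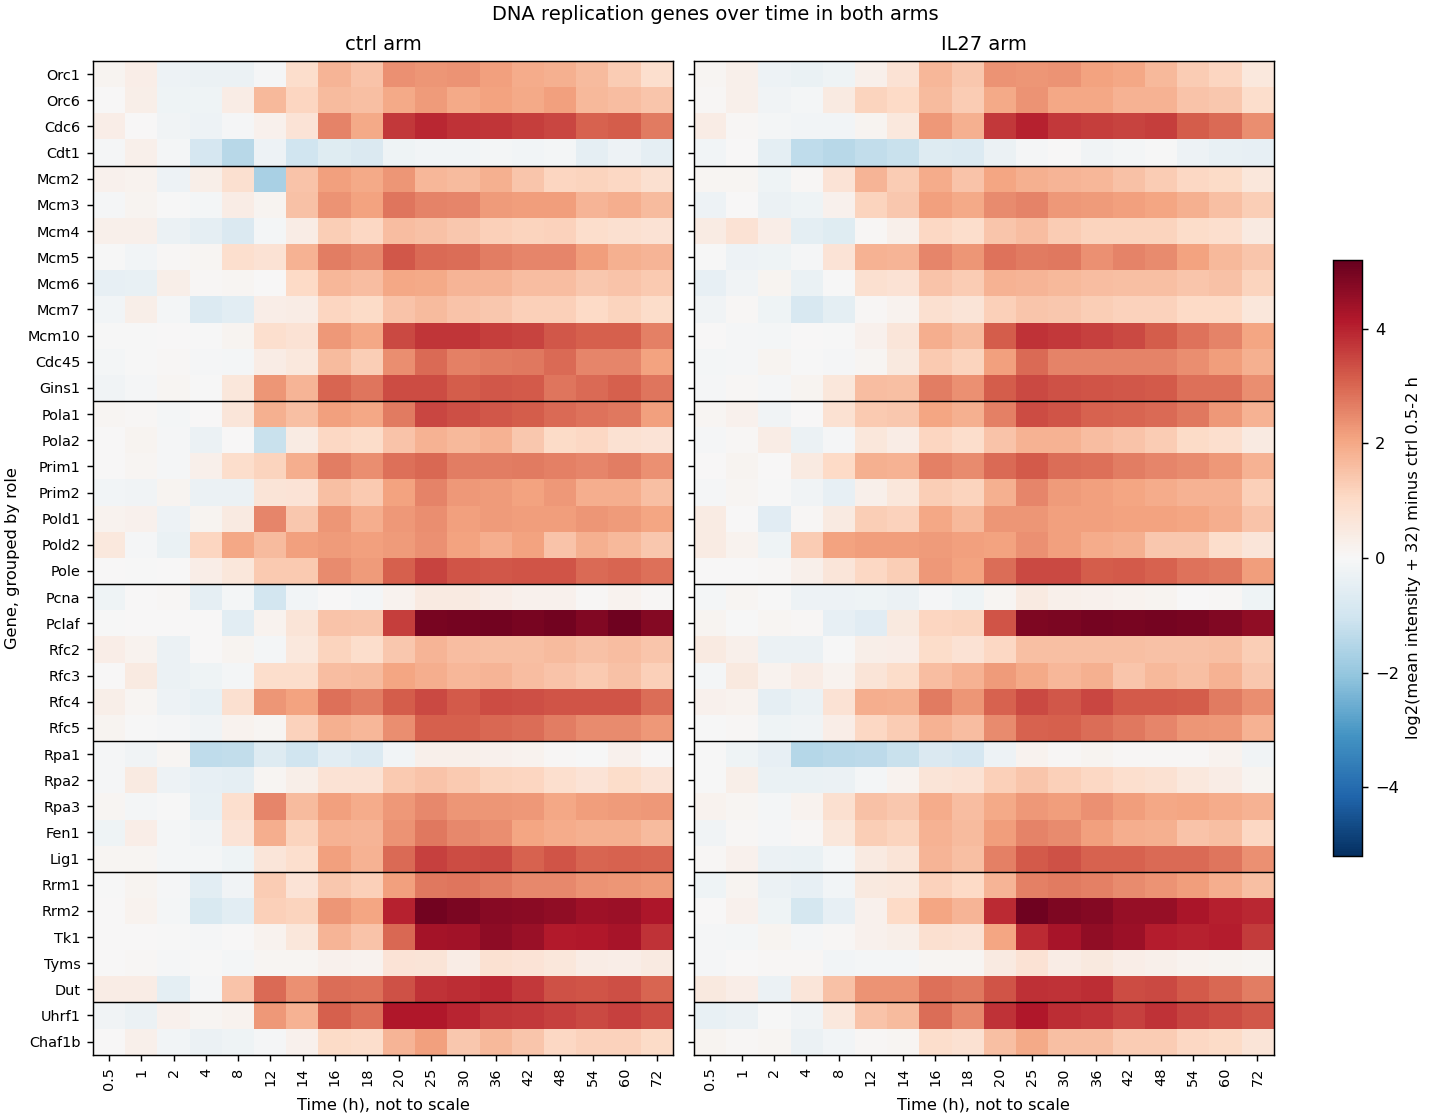
Values are log2(mean intensity + 32) of 38 DNA replication genes at each of 18 times, in the ctrl arm (left) and the IL27 arm (right). The same value for the ctrl mean intensity over 0.5-2 h was subtracted. Columns are times in hours, rows are genes, and lines part the roles. Most rows turn red between 14 and 20 h in both arms, Cdt1 and Rpa1 are blue before that, and the ctrl 12 h column breaks the sequence for genes such as Mcm2.

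Licensing genes load the helicase onto origins. Cdc6, the loader with the largest rise of the group, stood in ctrl at 30.7, 18.0, 12.7 and 10.5 on the arrays at 0.5, 1, 2 and 2 h d, and at 9.67, 15.6 and 15.3 at 4, 8 and 8 h d. At 14 h it was 49.6, at 16 h 239 and 293, at 18 h 162, and at 20 h 803 and 397. No array from 14 h on overlapped those up to 8 h, and the difference between 14-20 h and 4-8 h was 2.63 ± 0.44 (SE, 6 against 3 arrays). Orc1, the largest subunit of the origin recognition complex, peaked at 20 h with 289 and 238 and was down to 54.2 and 86.7 at 72 h. Orc6, another ORC subunit, rose from 166, 323 and 220 at 4-8 h to between 468 and 1007 over 14-20 h. Cdt1, the partner of Cdc6, ran the other way at first. It was at 2795, 3480, 2914 and 2506 over 0.5-2 h, fell to 1566, 933 and 1150 at 4-8 h (-1.27 ± 0.19), and then rose by 0.69 ± 0.18 into 14-20 h. A second Cdt1 probe set with lower intensity had the same shape, with ctrl means of 1125, 460 and 799 over the 3 stages.

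The helicase is the Mcm2-7 ring with Cdc45 and GINS. Gins1 had the largest rise of this group. Its ctrl values were 25.9, 57.2 and 57.7 at 4-8 h, and between 170 and 707 over 14-20 h, a difference of 2.49 ± 0.25. Mcm6 had 947, 1039 and 928 at 4-8 h and between 1908 and 3876 over 14-20 h. The ring subunits Mcm2, Mcm3, Mcm4, Mcm5 and Mcm6 had their highest ctrl time mean at 20 h, whereas Mcm7, Cdc45 and Gins1 had it at 25 h and Mcm10, which helps the helicase start, at 30 h. From 14-20 h to 25-36 h only Mcm10 (1.36 ± 0.34) and Cdc45 (1.09 ± 0.24) of the 9 helicase genes rose further. Mcm2 was 82.3 on the ctrl 12 h array and 1248 on the IL27 12 h array, while its ctrl values at 8 and 14 h were between 596 and 1001.

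Among polymerases and primase, Prim1, the catalytic subunit of primase, had the largest 14-20 minus 0.5-2 h difference, 2.56. Its ctrl values were 142, 290 and 192 at 4-8 h and between 492 and 1209 over 14-20 h, a difference of 1.84 ± 0.20. At this step Pole, the catalytic subunit of polymerase epsilon, had the largest difference of the group, 1.94 ± 0.26. Pold2, an accessory subunit of polymerase delta, had the largest rise of the 38 genes at the first step. It went from 371, 231, 154 and 207 over 0.5-2 h to 568, 1250 and 872 over 4-8 h, a difference of 1.76 ± 0.22, and passed the midpoint of its rise at 8 h. Pola1, Pola2, Prim2 and Pole rose again from 14-20 h to 25-36 h.

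In the clamp and loader group, Pcna was bright throughout, between 4778 and 9236 on the ctrl arrays other than 12 h. Its rise came at the step to 25-36 h (0.42 ± 0.09). Pclaf, a small protein that binds PCNA, was low until 18 h, with ctrl values of 120 at 14 h, 189 and 284 at 16 h and 227 at 18 h. At 20 h it was 1733 and 494, and from 25 h on it lay between 2441 and 3158 with no overlap with any earlier array. Its step to 25-36 h, 3.03 ± 0.40, was the largest of the 38 genes at that step. Rfc4, a clamp loader subunit, had the largest rise of its group by 14-20 h, from 49.0, 212 and 96.7 at 4-8 h to between 413 and 1075.

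Of the single strand binding and joining genes, Lig1, the ligase that seals lagging strand fragments, rose from 94.2, 96.1 and 73.8 at 4-8 h to between 220 and 1114 over 14-20 h and rose again to between 1314 and 1569 over 25-36 h. Rpa1, the large subunit of the single strand binding complex RPA, began high. It had 1654, 1554, 2153 and 1638 over 0.5-2 h and 675, 585 and 823 over 4-8 h (-1.30 ± 0.19), and came back to between 2042 and 2160 over 25-36 h. Rpa2 and Rpa3, its partners, did not fall in this way: neither was called at the step to 4-8 h.

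All 5 nucleotide supply genes rose at the step to 14-20 h, with a median of 1.92, and 4 of them, all but Tyms, rose again at the step to 25-36 h. Rrm2, the regulated subunit of ribonucleotide reductase, was at 28.9, 55.9 and 28.1 in ctrl at 4-8 h, at 406 at 18 h, at 2466 and 934 at 20 h, and at 3408 at 25 h. Tk1, the S phase thymidine kinase, was at 14.7, 19.4 and 15.7 at 4-8 h, 42.0 at 14 h, 137 and 138 at 16 h, 105 at 18 h, 506 and 213 at 20 h, and 958 at 25 h. Both passed the midpoint of their rise at 20 h, as did Rrm1, Tyms, Pclaf and Chaf1b. Dut, which removes dUTP, had the largest 14-20 minus 0.5-2 h difference of this group, 3.01. It was at 229, 229, 118 and 102 over 0.5-2 h, at 159, 644 and 426 over 4-8 h (1.02 ± 0.28), and between 1026 and 2249 over 14-20 h, and passed its midpoint at 14 h. Tyms, thymidylate synthase, was dim on its own probe set (ctrl means of 18.4 at 4-8 h and 46.5 at 25-36 h). A brighter probe set, which one platform table assigns to Tyms and the other to Tyms and a pseudogene, had ctrl means of 85.0 and 1582.

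Uhrf1, which brings the maintenance methyltransferase to newly copied DNA, had the largest 14-20 minus 0.5-2 h difference of the 38 genes, 3.22. Its ctrl values were 24.4, 19.7, 38.6 and 45.1 over 0.5-2 h and between 191 and 1189 over 14-20 h. Chaf1b, a subunit of the histone chaperone CAF-1, rose by 1.33 ± 0.25 from 4-8 h.

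Across the 38 genes the ctrl midpoint fell at 14 h for 10, at 16 h for 17, at 20 h for 6, at 25 h for Pcna and Rpa1, and once each at 1, 8 and 18 h (Cdt1, Pold2 and Rpa2). The highest ctrl time mean was at 25 h for 23 genes and at 20 h for 8. Times are sampled 2 to 5 h apart in this range and some hold 1 array an arm, so these are positions in the sampling, not tested. The arrays at 20 h differed: the array with suffix d was lower than its partner for 35 of 38 genes in ctrl and for 38 of 38 in IL27, with median differences of -0.41 and -0.56, while the median over all tested genes was 0.03 and -0.01.

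**Figure D2:**
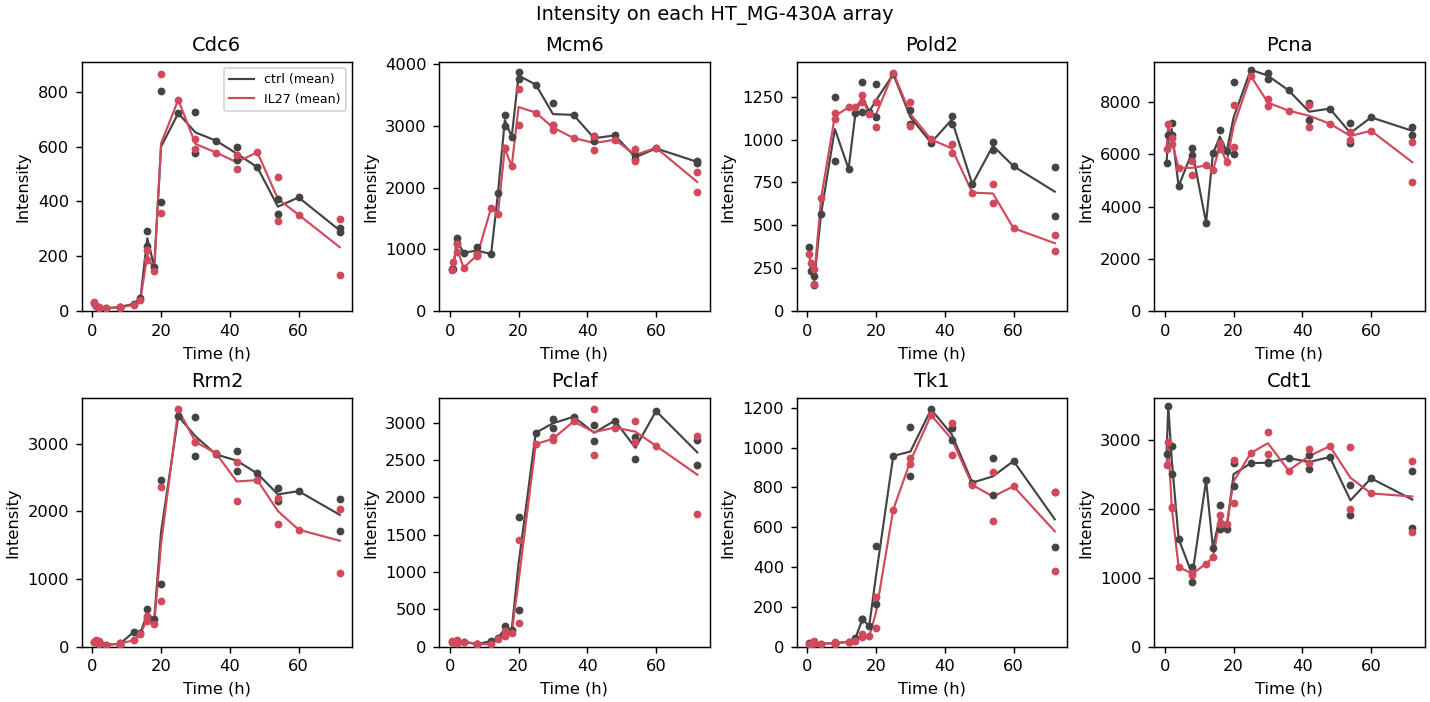
Intensity of 8 DNA replication genes on each HT_MG-430A array (points) against time in hours, with lines through the mean at each time, for ctrl (grey) and IL27 (red). Cdc6, Mcm6, Rrm2, Pclaf and Tk1 rise steeply between 14 and 25 h, Pold2 rises by 8 h, and Cdt1 falls before it returns.

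IL-27 was compared with ctrl at matched times in 3 windows: early (0.5 to 4 h, 5 arrays an arm), middle (8 to 20 h, 9 an arm) and late (25 to 72 h, 12 an arm). In the early window Mcm4 was higher (1.8% of all tested genes were higher) and none was lower (0.53%). In the middle window Tk1 and Gins1 were lower (5.86% of all genes) and none was higher (4.83%). In the late window Pold2, Fen1, Lig1, Rpa2 and Tyms were lower (9.76% of all genes) and none was higher (8.78%). At an unadjusted p under 0.05, limma had 3 of the 38 higher and 1 lower in the early window, against 4.8% and 6.38% of all tested genes. In the middle window 0 were higher and 13 lower, against 11.9% and 14.2%, and in the late window 0 were higher and 13 lower, against 13.4% and 16.4%. The medians over the 38 genes were 0.01, -0.14 and -0.14, against -0.03, -0.02 and -0.01 over all tested genes. No gene was called for a change of the IL-27 difference between the middle and late windows, where 8.1% of all genes were, and 3 of the 38 had an unadjusted p under 0.05, against 23.7% of all genes. With a block on the title suffix d within each time, 10 of the 38 were lower in the middle window and 12 in the late window. The shares of all tested genes were 8.93% and 12.6%. None was higher in either window of that fit (5.88% and 10.4% of all genes). The differences, adjusted p-values and calls with IL-27 on HT_MG-430A below are from the fit without this block, unless stated. A gene not called there can be among the 10 or 12 called with the block. The difference between an array of suffix d and its partner was correlated between the arms at -0.01 at 30 h. At the other times this correlation ran from 0.23 (72 h) to 0.76 (2 h).

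Tk1 carried the largest difference. With IL-27 it was at 29.4 at 14 h, 50.9 and 61.5 at 16 h, 51.4 at 18 h, and 251 and 95.7 at 20 h, each below the ctrl array of the same time and suffix given above. The middle window difference was -0.51 ± 0.15 (adjusted p = 0.018), and it was not called without 16 h (adjusted p = 0.149) or without 20 h (0.059). At 25 h Tk1 was 689 against 958, and at 36 h 1163 against 1191. It was the lowest of the 38 differences on each of the 6 matched pairs from 14 to 20 h. The IL27 midpoint of Tk1 fell at 25 h, after its ctrl midpoint at 20 h. Of the 38 genes, 31 had their midpoint at the same time in both arms. It was later with IL-27 for 5, Tk1 among them, and earlier for 2, which was not tested. These 2 were Pold2 (4 h against 8 h in ctrl) and Rpa1 (0.5 h against 25 h). Rpa1 began high, and its highest time mean lay only 0.41 above its 0.5-2 h mean with IL-27 and 0.33 in ctrl. Its first IL27 array was already past the midpoint, so this is not an earlier rise.

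Gins1 in the middle window ran from 57.2 to 707 in ctrl (median 376) and from 52.2 to 593 with IL-27 (median 275), with a difference of -0.29 ± 0.09 (adjusted p = 0.037). The window spans the rise, and the arms overlapped. Gins1 was not called without the ctrl 12 h array (-0.24, adjusted p = 0.124), nor without 16 h (0.138) or 18 h (0.077). Without that 12 h array Tk1, Mcm6 and Rfc2 were the genes called lower (4.28% of all tested genes were).

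The matched arrays at 14 to 20 h had the same sign for many members. On each of these 6 pairs, between 30 and 35 of the 38 genes were lower with IL-27, with medians from -0.25 to -0.12. Over all tested genes, between 52.6% and 60.0% were lower on these pairs, with medians from -0.05 to -0.01. Of the 38, 22 were lower on all 6 pairs, against 19.8% of all tested genes. This count was added after the values were seen. Over all pairs of a whole window, 3 of the 38 were lower in each of the early, middle and late windows. The shares of all tested genes were 12.3%, 4.97% and 4.33%. The 22 included Mcm3 to Mcm7, Mcm10, Cdc45 and Gins1 of the helicase, Lig1, Rrm1, Rrm2 and Uhrf1. Orc6, Cdc6, Dut and Fen1 were not among the 22. Further probe sets did not all go the same way over the middle window, which holds the 12 h arrays. Rrm1 was at 0.26 (-0.26 on the set used) and Rrm2 at 0.07 and -0.02 (-0.22). Mcm7 was at 0.16, -0.08 and -0.21 (-0.19) and Mcm3 at 0.16, 0.17, -0.07 and -0.03 (-0.07). Further sets of Mcm4, Mcm6, Mcm10 and Uhrf1 were at -0.11, -0.16, -0.02 and -0.15. From 25 to 54 h the medians of the 38 genes on the matched pairs lay between -0.10 and 0.02. At 60 h 34 of the 38 were lower (54.2% of all genes), with a median of -0.22 against -0.03 over all genes. Uhrf1 had the smallest adjusted p of the chromatin group, in the middle window (-0.21 ± 0.10, adjusted p = 0.17).

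**Figure D3:**
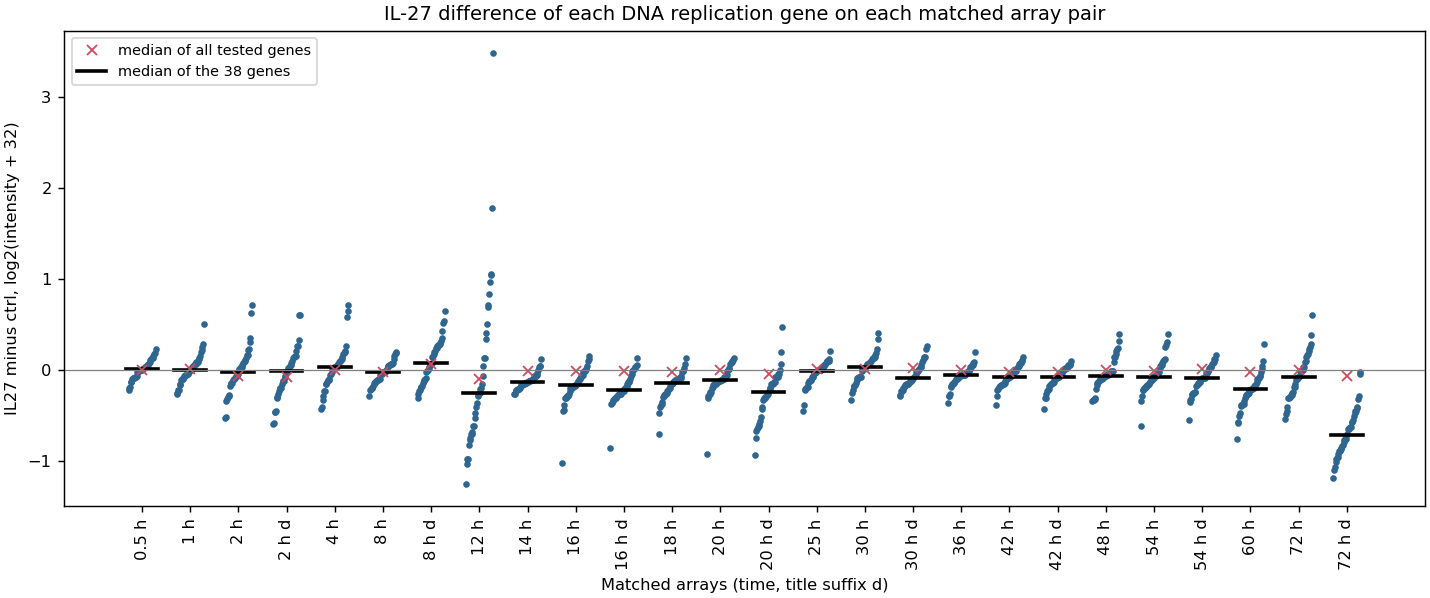
Difference of IL27 from ctrl, as log2(intensity + 32), for each of the 38 genes (points, sorted) on each matched array pair, with their median (bar) and the median of all tested genes (cross). Medians of the 38 genes lie below 0 on every pair from 14 to 20 h, points spread widely on the 12 h pair, and all 38 lie below 0 on the 72 h pair of suffix d.

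Mcm4 was the 1 early call. Its ctrl values were 886, 897, 618, 560 and 526 at 0.5, 1, 2, 2 d and 4 h, and its IL27 values were 1007, 1284, 1033, 865 and 508. IL-27 was higher on the first 4 pairs and not at 4 h, and the difference was 0.39 ± 0.10 (adjusted p = 0.020). The call was lost without 2 h (0.21, adjusted p = 0.999), without 1 h (0.099), without the arrays of suffix d (0.096) and with the mean of all its probe sets (0.201). The second Mcm4 probe set had a difference of 0.19.

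The late calls rested partly on 1 array. On the 72 h pair of suffix d, all 38 genes were lower with IL-27 (58.3% of all tested genes), with a median of -0.72. On the other 72 h pair 25 were lower (49.7% of all tested genes), with a median of -0.08. The median over all tested genes was -0.07 and 0.00 on these pairs. The 60 h pair, given above, lay between them. Pold2 ran from 553 to 1381 in ctrl (median 984) and from 348 to 1390 with IL-27 (median 831), a difference of -0.31 ± 0.09 (adjusted p = 0.009). With IL-27 it was lower on every pair from 42 h on. It was 922 against 1138 at 42 h, and 631 against 987 and, with suffix d, 740 against 939 at 54 h. At 60 h it was 483 against 845, at 72 h 443 against 553, and on the 72 h pair of suffix d 348 against 840. Rpa2 ran from 451 to 810 in ctrl (median 583) and from 235 to 806 with IL-27 (median 486), lower on all 12 pairs, with a difference of -0.25 ± 0.07 (adjusted p = 0.015). Fen1, which trims Okazaki fragment flaps, differed by -0.25 ± 0.08 (adjusted p = 0.019) and Lig1 by -0.25 ± 0.09 (adjusted p = 0.036). Tyms differed by -0.21 ± 0.05 (adjusted p = 0.004) at intensities near the array median, from 29.2 to 59.8 in ctrl and from 23.8 to 59.3 with IL-27. The brighter probe set shared with the pseudogene had a late difference of -0.45. Without the IL27 72 h array of suffix d, Pold2, Rpa2 and Tyms were still called and Fen1 (adjusted p = 0.051) and Lig1 (0.096) were not. In that fit 8.24% of all tested genes were lower. Without 72 h only Tyms was called, without 54 h Fen1 and Pold2 were not, and without all arrays of suffix d only Lig1 and Tyms were. Without all arrays of suffix d, 6.81% of all tested genes were lower. Without the ctrl 12 h array, 6 of the 38 were lower in the late window, against 12.8% of all tested genes. Orc6 (-0.18 ± 0.07, adjusted p = 0.089) and Rfc4 (-0.19 ± 0.09, adjusted p = 0.134) had the smallest adjusted p of their groups and were not called.

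In the IL27 arm itself, 12 of the 38 genes fell from 42-54 h to 60-72 h, where 16.7% of all tested genes fell. Without the IL27 72 h array of suffix d, or without 42 h, 1 fell, and without 72 h none did. The shares of all tested genes that fell were not computed for these fits. Split into 8 phases, Mcm4 was higher at 0.5-2 h (0.50 ± 0.10, adjusted p = 0.003), where 1.62% of all genes were higher, and stayed called without the ctrl 12 h array and without the IL27 72 h array of suffix d. At 60-72 h 10 genes were lower with IL-27 (9.77% of all genes), of which Pold2 alone was called without that array (5.69% of all genes). At 12-16 h Gins1, Pold1 and Rpa3 were lower (4.4%), and none of them was called without the ctrl 12 h array. At 18-20 h no gene was called (1.45% of all genes were lower), with Tk1 at -0.86 ± 0.25 (adjusted p = 0.055). Tk1 was called lower there without the ctrl 12 h array (adjusted p = 0.034) and without the IL27 72 h array of suffix d (0.037).

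The other genes of these pathways were followed on lists fixed by role. Of 24 tested fork genes outside the 38, 19 rose in ctrl between 4-8 h and 14-20 h and none fell, where 25.2% of all tested genes rose and 17% fell. They included Gmnn, the inhibitor of Cdt1 (2.81 ± 0.32), Wdhd1 (2.08 ± 0.25) and Tipin (1.75 ± 0.19). Of 10 replication chromatin genes 7 rose, with the remodeler Hells at 3.11 ± 0.25 and the methyltransferase Dnmt1 at 1.53 ± 0.21. Of 15 other nucleotide supply genes 3 rose (Paics, Dtymk and Dck) and Impdh1 fell, and of 13 E2F and RB factors 4 rose, among them E2f1 by 0.87 ± 0.20; both shares of rising genes lie near the 25.2% of all genes. With IL-27, limma called none of the 24 fork genes in any window, and at an unadjusted p under 0.05 there were 0 higher and 3 lower in the early window, 2 and 2 in the middle window and 1 and 5 in the late window, to be read against the shares of all genes above. In the middle window Tk2 (0.30 ± 0.09, adjusted p = 0.030) and the factor gene E2f5 (0.41 ± 0.10, adjusted p = 0.005) were higher, and Ctps2, Asf1a and Asf1b were lower (-0.42, -0.27 and -0.47). In the late window Dtymk, Cad and Mthfd1 of the nucleotide genes and Asf1a and Hat1 of the chromatin genes were lower. The factor gene Myb was lower in all 3 windows, with differences of -0.69, -0.66 and -0.79. The IL-27 difference changed between the middle and late windows for Tk2, E2f5 and Hat1, by -0.40, -0.58 and -0.38.

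The Mouse430A_2 arrays, normalized apart, gave the resting state and a second view of the course with 1 array a time and no test. From 0 to 4 h, 2 of the 38 genes rose by 1 or more and 2 fell by as much, against 17% and 15.6% of the 6723 genes kept on these arrays. Pold2 went from 490 to 1419, the largest rise, and Rpa1 from 8156 to 2924, the largest fall. From 4 to 16 h all 38 were higher, 34 by 1 or more against 9.18% of all genes, and Cdc6 rose most, from 41.0 to 992. From 16 to 48 h, 7 rose by 1 or more against 6.46%, led by Pclaf from 571 to 6396. With IL-27, limma over the 3 matched times called none of the 38 genes and none of 6478 tested genes (0%). At an unadjusted p under 0.05 there were 494 of all genes (7.63%, with 5.28% lower) and 3 of the 38, all 3 lower. At 4 h, 24 of the 38 were lower with IL-27, with a median of -0.13 against -0.16 over all genes. At 16 h 34 were lower, with a median of -0.18 against -0.02, and at 48 h 35 were lower, with a median of -0.14 against -0.03. Tk1 was the lowest difference at 16 h, at 101 against 251. GFPP minus GFPN had a median of -0.02 over the 38 genes, against 0.0045 over all genes. None of the 38 differed by 1 or more, as was the case for nearly all genes (0.119% were up and 0.0297% down by as much).

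**Figure D4:**
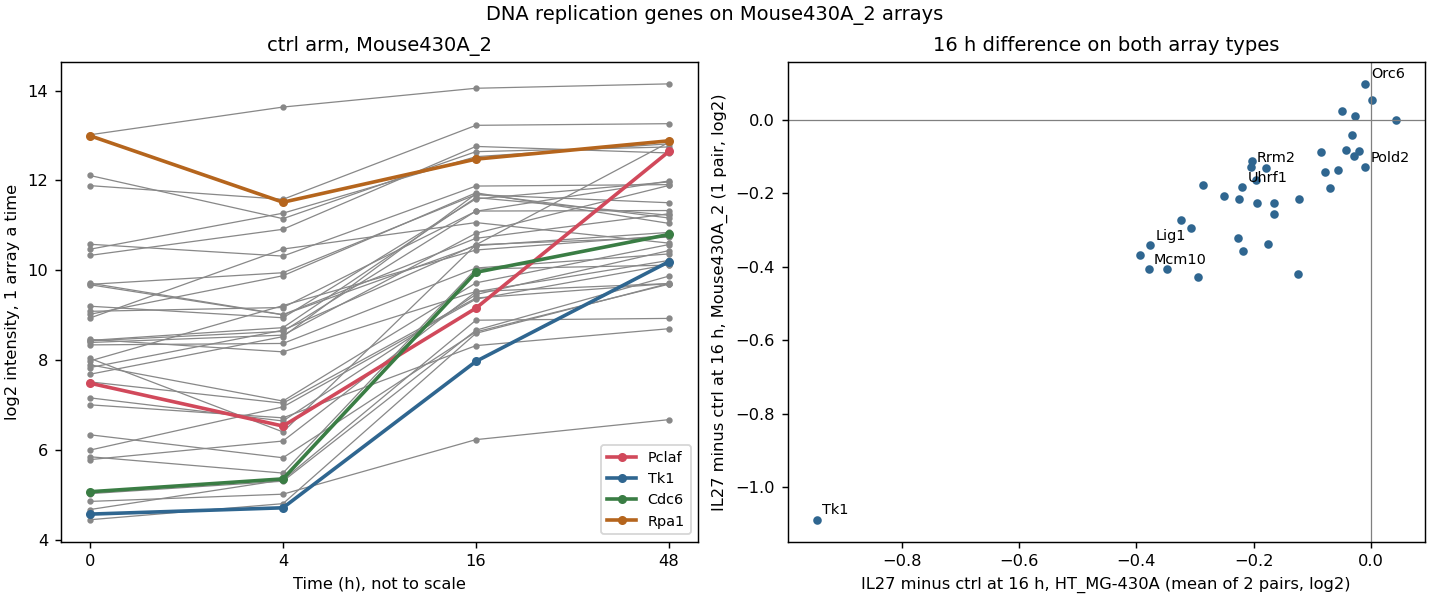
Left, log2 intensity of the 38 genes on single ctrl Mouse430A_2 arrays at 0, 4, 16 and 48 h, with 4 genes in colour. Right, the IL27 minus ctrl difference at 16 h on Mouse430A_2 (1 pair) against the mean of 2 pairs on HT_MG-430A, each point a gene; Tk1 stands apart at the lower left on both array types.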

How the data were processed

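RNA was hybridised to Affymetrix arrays, and the deposited values are intensities per probe set, one table per array type; MAS5 is the only tool named, per the submitters' processing notes, without a version, and no source used here gives its settings. Array medians ranged from 28.0 to 36.6 on HT_MG-430A and from 70.7 to 78.9 on Mouse430A_2, and values were used as deposited, with no further scaling. The number of arrays limits precision. Probe sets were named through the platform tables: of 22626, 20173 had 1 gene, 942 several and 1511 none; those with several genes were left out, which left Tyms on a dim probe set. A gene was kept if above its array's median on at least 5 arrays (3 on Mouse430A_2), values were log2(intensity + 32), and limma 3.58.1 in R 4.3.3 (lmFit, eBayes with an intensity trend) was run with time as a factor and IL-27 per window, or with arm and stage for the course. The scripts were tested on simulated data. The members and lists were chosen with earlier results of these data known. Genes named with values by time were, per role, the one with the largest 14-20 minus 0.5-2 h rise in ctrl and the one with the smallest adjusted p for IL-27; every member called in a window was named, and Orc1, Cdt1, Mcm2, Mcm6, Pcna, Pclaf, Rpa1, Rrm2, Chaf1b and the early riser Pold2 were added after their values were seen. Alternatives were other pseudocounts (1 and 100), filters, quantile normalization, the mean of all probe sets, arrays left out and a block on the suffix.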

Additional observations from a re-analysis of the deposited data

How the results depend on the processing

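No called value changed sign under any alternative run. For the genes called lower or higher with IL-27, 96 of 127 alternative fits kept the call and 31 lost it. In the early window the count of 1 went to 0 when probe sets were averaged, and again without the arrays of suffix d, and ranged from 0 to 1 when each time was left out. In the middle window the count of 2 became 1 with no filter on low values, 5 with quantile normalization and 6 without suffix d, and ranged from 0 to 5 over times left out. All 6 genes called without suffix d were lower, against 6% of all tested genes. In the late window the count of 5 became 2 without suffix d and 3 without the IL27 72 h array of suffix d, a setting chosen after seeing the data, and ranged from 1 to 6. These 2 and 3 genes were lower, against 6.81% and 8.24% of all tested genes. The change between windows ranged from 0 to 1. For alternative fits in this section given without a share of all tested genes, a changed count cannot be told apart from a change in calls over all genes. For the ctrl course, the counts without suffix d were 5 of a main 9 at the first step, 0 of 3 at the step to 42-54 h (5 when probe sets were averaged) and 0 of 1 at the last, which was also 0 with pseudocount 1 and with no filter; over times left out the 5 steps ranged from 4 to 12, 36 to 37, 12 to 28, 0 to 4 and 0 to 2. For the IL27 arm, the counts without suffix d were 7 of 12, 16 of 25, 0 of 4 (7 with pseudocount 100) and 0 of 12, the last being 1 without the IL27 72 h array of suffix d; the 5 steps ranged from 4 to 13, 34 to 36, 14 to 31, 0 to 7 and 0 to 17. The suffix d could serve as a replicate number. The difference between an array of that suffix and its partner was correlated between the arms at -0.01 at 30 h. At the other times the correlation ran from 0.23 at 72 h to 0.76 at 2 h. The suffix was used to match arrays in pairs and was left out of the main model. With the replicate block on the suffix the counts of genes called with IL-27 were 1 higher, 10 lower and 12 lower in the early, middle and late windows, against 2%, 8.93% and 12.6% of all tested genes in the same direction. Signal over background limits Tyms most, since its intensities lay near the array medians.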
